A study of Mus musculus with 2 samples.

Results

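A set of 10 genes of iron storage, iron transport, iron sensing and heme breakdown was followed in B16 cells, a pigmented mouse melanoma line. They are the ferritin subunit genes Fth1 and Ftl1, the import genes Tfrc, Steap3 and Slc11a2, the export gene Slc40a1, the regulators Ireb2 and Aco1, the ferritin cargo receptor gene Ncoa4 and the heme oxygenase gene Hmox1. The 10 genes were chosen by symbol, for their function, with earlier results of these data known. All 10 were found among the 18224 genes listed. The groups were B16 cells treated with LY500307 and B16 cells given a control treatment, with 1 library each. LY500307, or erteberel, is a synthetic estrogen receptor beta agonist. What vehicle, dose and duration were used, and whether cultures were combined, is not stated in the labels.

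Cells take up iron bound to transferrin through the transferrin receptor, reduce it in endosomes and pass it to the cytosol. Surplus iron is stored inside a shell built of ferritin heavy and light chains, leaves the cell through ferroportin, or is released again when ferritin is carried to lysosomes. A pair of iron regulatory proteins binds hairpins called iron-responsive elements when iron is scarce. A hairpin ahead of the coding sequence, as in the ferritin messages, then blocks translation, while hairpins behind the coding sequence of the transferrin receptor message protect it from decay. Ferritin and heme oxygenase genes are also transcribed in response to oxidants and heme, through the factors NRF2 and BACH1. RNA levels report on transcription and decay and not on the translation block.

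The hairpins themselves are shown because their place in the message separates the storage and export genes from the transferrin receptor gene. A search of the main GENCODE M21 transcript of each gene on build GRCm38 for an unpaired C, 5 bases, the 6-base loop CAGTGN and 5 more bases, with the 5 bases on each side of the loop pairing with each other and the last loop base not G, found a match in 4 of the 10 genes. Of 18177 listed genes with a transcript, 168 or 0.924% held such a match in their longest one, on the transcript strand. Each line gives 29 bases of the transcript, 5′ to 3′, with the loop in capitals.
Fth1, chr19:9982732-9982760, plus strand, ahead of the coding sequence: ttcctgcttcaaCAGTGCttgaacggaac
Ftl1, chr7:45459779-45459807, minus strand, ahead of the coding sequence: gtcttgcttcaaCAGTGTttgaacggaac
Slc40a1, chr1:45925465-45925493, minus strand, ahead of the coding sequence: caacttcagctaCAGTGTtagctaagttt
Tfrc, chr16:32631219-32631247, plus strand, behind the coding sequence: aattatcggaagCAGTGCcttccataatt
Tfrc, chr16:32631598-32631626, plus strand, behind the coding sequence: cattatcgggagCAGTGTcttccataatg
Tfrc, chr16:32631663-32631691, plus strand, behind the coding sequence: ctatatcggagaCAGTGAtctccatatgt
Tfrc, chr16:32631710-32631738, plus strand, behind the coding sequence: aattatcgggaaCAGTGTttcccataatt
The elements of both ferritin genes differed at 3 of 29 bases. Those of Fth1 and Slc40a1 differed at 16 bases. The 4 elements of Tfrc differed from each other at 4 to 11 bases and from that of Fth1 at 18 to 20. A match describes the letters only, and a transcript without one may hold a hairpin of another shape.

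The LY500307 library held 14698853 reads and the control library 16704950. Levels are given as CPM, reads scaled for depth to a total shared by both libraries, in which 1 read was worth 0.0676 CPM in the LY500307 library and 0.0603 CPM in the control library. All 7 melanocyte markers were measured, with a summed level of 25082 CPM in the LY500307 library and 26245 CPM in the control library, so the labelled cell type showed its defining markers. Of 8 leukocyte markers only Cd68 was listed, at 1.35 CPM with LY500307 and 1.51 CPM in the control. Of 9 erythroid markers the 3 listed summed to 1.69 CPM with LY500307 and 3.01 CPM in the control, and only Epor had a mean of 1 CPM or more. The other markers of both kinds were not among the genes listed, and why is not stated. Each group was a single library, so differences have no replicate check and no test. Intervals are exact 95% intervals (Clopper-Pearson) of the read ratio. With 1 library per group they hold counting error alone. They treat reads as independent, and since reads from PCR are not independent molecules, they may be too narrow even for that. Every value describes these 2 libraries, not the treatment. In bulk RNA, fewer cells with a transcript and less of it per cell cannot be told apart.

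Between the libraries Fth1 and Hmox1 were past the threshold described next, both higher with LY500307, and the other 8 genes lay within it. On the scale log2(CPM + 1), 7 of the 10 genes were above 0 and 3 below, from -0.16 for Tfrc to 0.51 for Fth1. The threshold for a difference was a log2 fold of 0.32, a level 25% higher or 20% lower, also chosen with earlier results known. Fth1 and Hmox1 were past it on the higher side and none of the 10 on the lower side. Of the 12243 genes whose mean reached 1 CPM, 8.32% were past the threshold on the higher side and 6.59% on the lower side. The 10 genes were all above 10 CPM, and among the 9081 genes at that level the shares were 4.21% and 3.87%. The median log2 fold was 0.12 for the 10 genes and -0.01 for the 9081. Counting intervals lay above 0 for 3 of the 10 genes and below 0 for 2, where 18.4% and 22.9% of the 9081 genes did, so these counts are near the background. None of the 10 was 1.5-fold higher or lower, beside 2.25% and 1.39% of the 12243 genes, or 2-fold higher or lower, beside 0.253% and 0.123%.

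**Figure D1:**
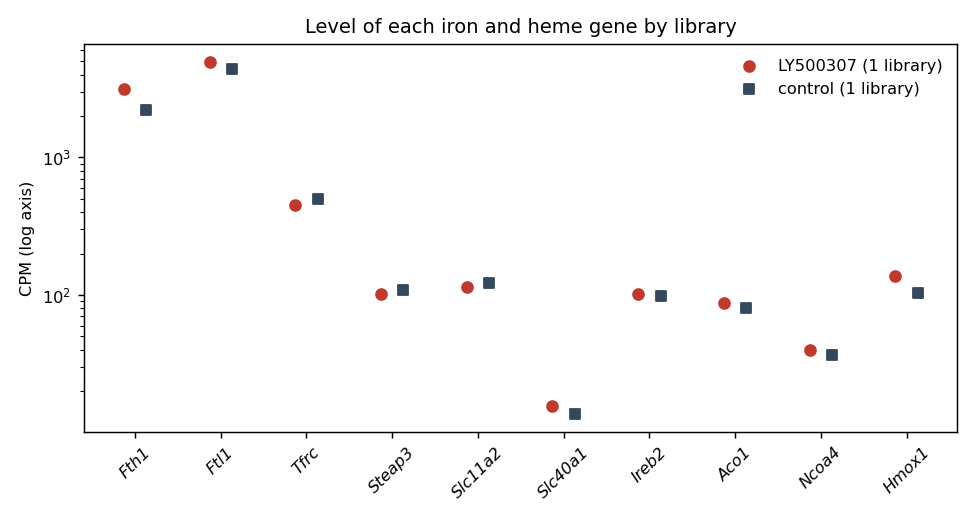
Level of each of the 10 genes in CPM (log axis) in the LY500307 library (red circles) and the control library (dark squares), 1 library each. Both ferritin genes lie highest and Slc40a1 lowest, and the largest vertical gaps are those of Fth1 and Hmox1.

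The ferritin genes were by far the most abundant of the 10. Ferritin heavy chain, from Fth1, carries the ferroxidase that oxidises iron for storage, and the light chain, from Ftl1, helps the mineral core form. Fth1 (ENSMUSG00000024661, chromosome 19) was at 3160 CPM on 46764 reads in the LY500307 library and at 2214 CPM on 36733 reads in the control library. The LY500307 library was thus higher, with a read ratio of 1.43 (interval 1.41 to 1.45) and a log2 fold of 0.51. Of the 9081 genes above 10 CPM, 94 or 1.04% had a log2 fold at least as high. Ftl1 (ENSMUSG00000050708, chromosome 7) was at 4964 CPM on 73466 reads in the LY500307 library and at 4380 CPM on 72672 reads in the control library. Its ratio was 1.13 (1.12 to 1.15) with a log2 fold of 0.18, within the threshold, and 13.2% of the genes above 10 CPM were at least as high.

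Both ferritin messages had ratios above 1, that of the heavy chain being larger, and the share of the heavy chain was higher in the LY500307 library. Fth1 supplied 38.9% of the reads of both genes in the LY500307 library (exact interval 38.6% to 39.2%) and 33.6% in the control library (33.3% to 33.9%). With 1 library per group these intervals hold counting error alone, and at this depth many genes have counting intervals off equality, as the shares of 18.4% and 22.9% show. Per kilobase of the main transcript, Fth1 stood at 0.663 of the level of Ftl1 with LY500307 and at 0.527 in the control. Together the ferritin genes came to 8124 CPM with LY500307 and 6594 CPM in the control. Of that gap, Fth1 accounted for 946 CPM and Ftl1 for 584 CPM.

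Near-identical copies touch Ftl1 more than Fth1. A total of 12 annotated genes matched the Ftl1 transcript at 95% identity or more, and 6 of them were listed. The retrogene Ftl1-ps1, 99.6% identical over 910 bases, had 4185 reads with LY500307 and 4167 in the control. All 6 listed copies held 4894 reads with LY500307 and 4861 in the control, which was 6.25% of the summed reads with LY500307 and 6.27% in the control. Summed with them, Ftl1 had a log2 ratio of 0.18 (0.17 to 0.19). No copy of Fth1 met this identity rule. The listed pseudogene Fth-ps2, matched by name, had 4 reads with LY500307 and 2 in the control, and adding them left the log2 fold of Fth1 at 0.51. With the Ftl1 copies counted on the side of the light chain, the heavy chain's share was 37.4% with LY500307 and 32.1% in the control.

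**Figure D2:**
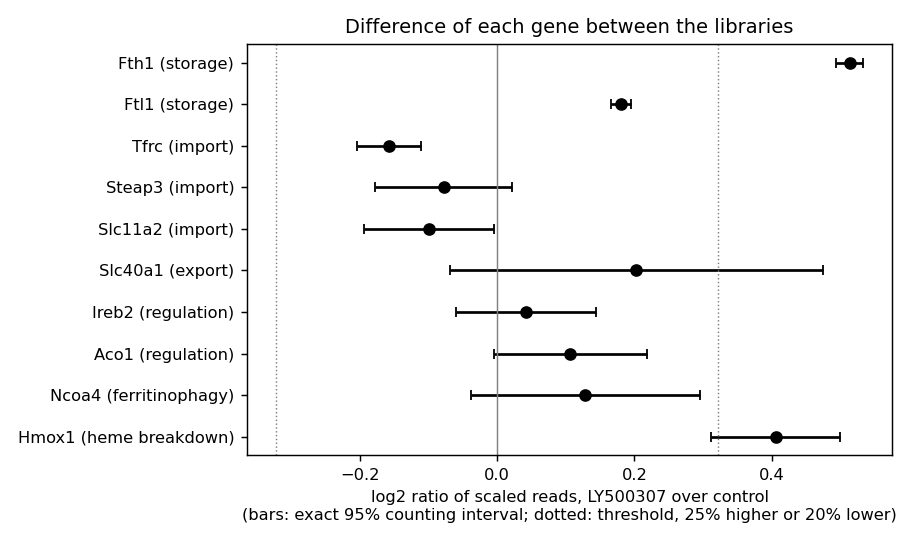
Log2 ratio of scaled reads, LY500307 over control, for each gene with its role. Bars are exact 95% counting intervals, the solid line marks equal levels and dotted lines mark the threshold. Fth1 lies past the upper dotted line with its whole interval, and the interval of Slc40a1 is the widest.

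The 3 import genes had log2 folds below 0, each within the threshold. Tfrc (ENSMUSG00000022797, chromosome 16) encodes the receptor that takes in transferrin. It was at 450.5 CPM on 6667 reads with LY500307 and at 502.2 CPM on 8333 reads in the control. Its ratio was 0.897 (0.868 to 0.926), a log2 fold of -0.16, with 18.1% of the genes above 10 CPM at or below it. Slc11a2 (chromosome 15) encodes DMT1, the transporter that moves ferrous iron out of endosomes. It was at 113.4 CPM on 1678 reads with LY500307 and at 121.4 CPM on 2015 reads in the control, with a ratio of 0.934 (0.875 to 0.997). Steap3 (chromosome 1) encodes the endosomal reductase that turns ferric into ferrous iron. Its levels were 102.4 CPM on 1515 reads with LY500307 and 108.1 CPM on 1793 reads in the control, and the interval of its ratio, 0.947 (0.884 to 1.01), includes 1.

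The export gene rested on few reads. Slc40a1 (ENSMUSG00000025993, chromosome 1) encodes ferroportin, the known exporter of cellular iron. It had 231 reads with LY500307 and 225 in the control, which was 15.6 CPM with LY500307 and 13.6 CPM in the control. The ratio of 1.15 had an interval of 0.954 to 1.39, so at this depth no difference was detectable. Its log2 fold of 0.19 is close to that of Ftl1, which had a far narrower interval.

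The sensors of iron were nearly level between the libraries. Ireb2 (chromosome 9) encodes IRP2, which is degraded when iron is plentiful. It was at 101.4 CPM on 1500 reads with LY500307 and at 98.5 CPM on 1634 reads in the control, a ratio of 1.03 (0.959 to 1.10). Aco1 (chromosome 4) encodes IRP1, which turns into a cytosolic aconitase when it holds an iron-sulphur cluster. It was at 86.8 CPM on 1284 reads with LY500307 and at 80.6 CPM on 1337 reads in the control, a ratio of 1.08 (0.997 to 1.16). Both intervals include 1, and both upper bounds lie below the threshold.

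Ncoa4 (ENSMUSG00000056234, chromosome 14), the receptor that delivers ferritin to autophagosomes, was also close in both libraries. It was at 39.7 CPM on 588 reads with LY500307 and at 36.3 CPM on 603 reads in the control. The ratio was 1.09 (0.974 to 1.23). The listed gene Gm6768 is near-identical to it over 1878 bases and had 93 reads with LY500307 and 119 in the control. Summed with Gm6768, Ncoa4 had a log2 ratio of 0.08 (-0.07 to 0.23), against 0.13 alone.

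Hmox1 was the other gene past the threshold. It encodes the inducible heme oxygenase, which opens heme to biliverdin, carbon monoxide and free iron. Hmox1 (ENSMUSG00000005413, chromosome 8) was at 136.7 CPM on 2023 reads with LY500307 and at 103.2 CPM on 1712 reads in the control. The read ratio was 1.32 (1.24 to 1.41) and the log2 fold 0.40, and 211 or 2.32% of the genes above 10 CPM were at least as high. Its lower bound lies just under the threshold. The constitutive enzyme gene Hmox2 was at 39.5 CPM with LY500307 and 36.3 CPM in the control, with a log2 fold of 0.12 and an interval that includes 0.

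**Figure D3:**
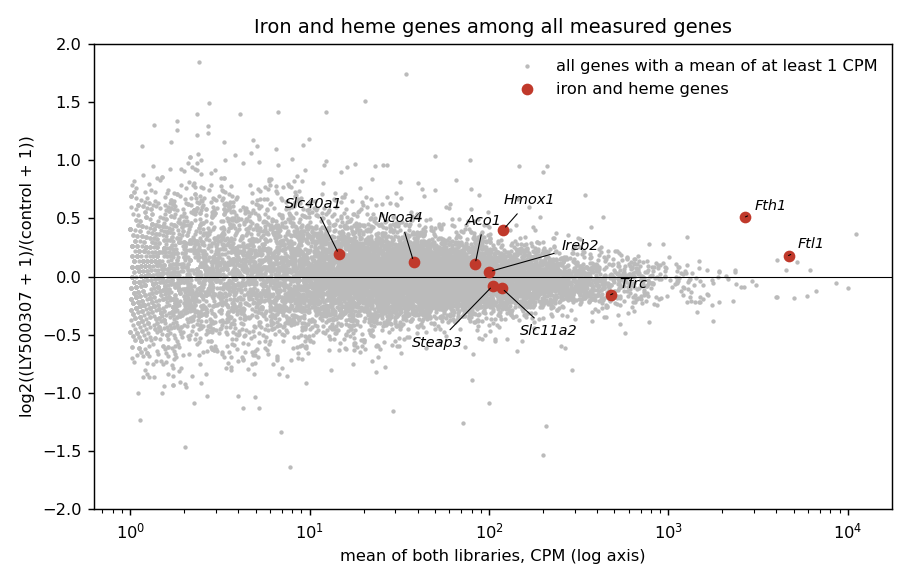
Log2 fold, LY500307 over control on the CPM + 1 scale, against the mean of both libraries in CPM (log axis), for the 12243 genes whose mean reached 1 CPM (grey) and the 10 iron and heme genes (red). Fth1 stands at the upper edge of the grey cloud at its level and Hmox1 near it, while the other 8 genes lie inside the cloud.

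Levels can be ranked across genes only per length. In CPM per kilobase of the main transcript, Ftl1 was highest at 5128 with LY500307 and 4525 in the control, followed by Fth1 at 3401 with LY500307 and 2383 in the control. Tfrc followed at 92.1 with LY500307 and 102.7 in the control, Hmox1 at 87.1 with LY500307 and 65.8 in the control, and Slc11a2 at 37.5 with LY500307 and 40.1 in the control. Aco1, Steap3 and Ireb2 lay together between 17.1 and 22.6 in both libraries. Ncoa4 at 9.77 with LY500307 and 8.94 in the control and Slc40a1 at 4.63 with LY500307 and 4.02 in the control were lowest. The order of the 10 genes was the same in both libraries, and whether Aco1, at 21.03 in the control, and Steap3, at 20.95, differ cannot be told without replicates.

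The lists of messages with iron-responsive elements were drawn up from general knowledge and not from the search above, and values are for whole genes, not isoforms. Those with an element ahead of the coding sequence had a median log2 fold of 0.19 over 4 measured genes. Of these, 1 or 25% was past the threshold on the higher side and none on the lower. Of all measured genes 8.32% and 6.59% were, and a count over 4 genes cannot be told from those shares. The 4 genes are Fth1, which is the 1 past the threshold, Ftl1, Slc40a1 and Epas1. All but Epas1 were reported above, so this median largely restates values already given. Epas1, which encodes the hypoxia factor HIF2 alpha, had a log2 fold of 0.17. Alas2, the erythroid enzyme of heme synthesis, had 0 reads with LY500307 and 3 in the control and was not measured. Messages with such elements behind the coding sequence had a median of -0.05 over 4 genes. None was past the threshold on either side, beside the same shares of all measured genes. The 4 genes are Tfrc and Slc11a2, also reported above, the kinase gene Cdc42bpa at 0.03 and the phosphatase gene Cdc14a at -0.004. The search found no match in the main transcripts of Slc11a2, Cdc42bpa, Cdc14a and Epas1. The further genes of both lists had counting intervals that include 0.

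Across the wider lists of iron and heme handling, 120 further genes were measured of 151 named. Past the threshold, 13 of these were higher and 3 lower, or 10.8% and 2.5%, beside 8.32% and 6.59% of all measured genes. At a mean of at least 10 CPM, a minimum added after the data were seen, 10 of 111 were higher and 2 lower. Of the 9081 genes at that level, 4.21% and 3.87% were. The median log2 fold of the 120 genes was 0.04, beside -0.01 for all genes.

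Past the threshold, 4 of the 10 measured genes of heme breakdown and transport, or 40%, were higher and none lower, Hmox1 included. Of all measured genes 8.32% and 6.59% were. The means of all 10 were above 10 CPM, where the shares were 4.21% and 3.87%. The median log2 fold of the 10 was 0.17. Slc48a1 encodes HRG1, which carries heme out of endosomes and lysosomes. It was at 509.0 CPM on 7533 reads with LY500307 and at 356.0 CPM on 5907 reads in the control, a log2 fold of 0.51 (interval 0.47 to 0.57). Slc46a1, a folate transporter that also carries heme, had a log2 fold of 0.43 (0.16 to 0.77) on 201 reads with LY500307 and 163 in the control. Abcc5, an ABC exporter, had 0.33 (0.23 to 0.44). Among the 4 higher genes, only Slc48a1 had an interval wholly past the threshold. None of the 10 was 1.5-fold higher or lower, beside 2.25% and 1.39% of all measured genes. The biliverdin reductase genes Blvrb and Blvra were at 0.21 and -0.004, and the heme exporter gene Flvcr1 at -0.13, each with an interval that includes 0.

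Heme synthesis genes were mostly within the threshold. Of 14 measured, none was past the threshold on the higher side and 1 or 7.14% on the lower, beside 8.32% and 6.59% of all measured genes, with a median of -0.01. Slc25a38, the mitochondrial glycine carrier that feeds heme synthesis, was at 22.97 CPM with LY500307 and 32.4 CPM in the control, a log2 fold of -0.48 (ratio interval on the log2 scale -0.69 to -0.30). Alas1, which starts the pathway in most tissues, was at 0.04. Fech, which inserts iron into the ring, was at 0.23, Clpx, a mitochondrial unfoldase that activates heme synthesis, at 0.17 and the decarboxylase gene Urod at 0.17.

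**Figure D4:**
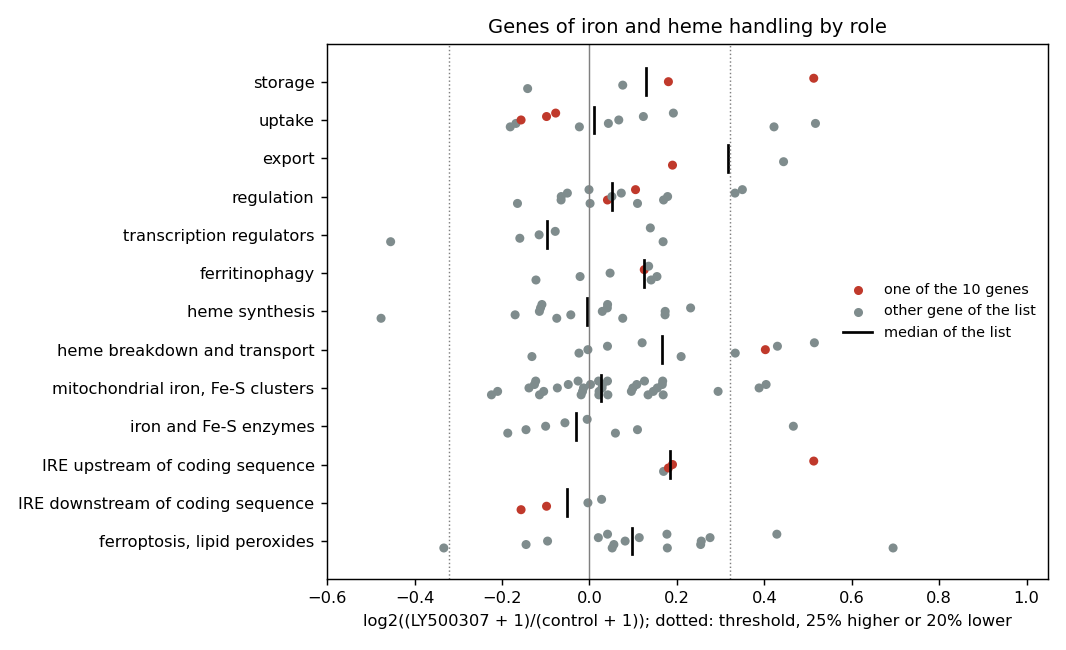
Log2 fold, LY500307 over control on the CPM + 1 scale, of each measured gene of 13 lists of iron and heme handling. Red points are among the 10 genes, grey points are other genes, black bars are list medians and dotted lines mark the threshold. Heme breakdown and transport has 4 points past the upper dotted line and the import genes in red lie left of 0.

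In the lists of uptake, export and regulation, the genes past the threshold were all higher, and those of uptake were on low levels. In the uptake list, Tfrc, Steap3 and Slc11a2 included, the median log2 fold was 0.01. Of its 12 measured genes 2 or 16.7% were higher and none lower, beside 8.32% and 6.59% of all measured genes. These were Slc22a17, a receptor for lipocalin, on 37 reads with LY500307 and 24 in the control, and Steap1, a relative of Steap3, on 109 reads with LY500307 and 87 in the control. Cp encodes ceruloplasmin, the ferroxidase that assists ferroportin. It had 157 reads with LY500307 and 125 in the control, and its log2 fold of 0.44 was past the threshold. The lower bound of its counting interval, 0.15, was not. Of the 2 measured export genes, Slc40a1 and Cp, 1 or 50% was thus higher and none lower, beside 8.32% and 6.59% of all measured genes. A count over 2 genes cannot be told from those shares. Picalm, a clathrin adaptor needed for transferrin receptor uptake, was at -0.18 and Hfe, a partner of the transferrin receptor, at 0.19. Of 15 measured genes of regulation, Ireb2 and Aco1 included, 2 or 13.3% were higher and none lower, beside 8.32% and 6.59% of all genes. They were Furin, a protease that processes hemojuvelin, at 0.35, and Smad1, which carries the signal to hepcidin in liver, at 0.33. Smad4 was at 0.18. Fbxl5, the iron sensor that marks IRP2 for degradation, was at -0.06 with an interval that includes 0.

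For transcription factors that act on ferritin and Hmox1, or their partners, 6 genes were measured. None was past the threshold on the higher side and 1 or 16.7% on the lower, beside 8.32% and 6.59% of all measured genes. A count over so few genes cannot be told from those shares. Nfe2l2, which encodes NRF2, was at 107.8 CPM with LY500307 and 120.5 CPM in the control, a log2 fold of -0.16 (interval -0.26 to -0.07). Keap1, which holds NRF2 back, was at 0.14 and Bach1, the heme-sensing repressor, at -0.12. The small MAF gene Maff, on 50 reads with LY500307 and 83 in the control, was at -0.45, the 1 gene of the 6 past the threshold, and Mafk was at 0.17. Iron chaperone genes that load ferritin were close, with Pcbp1 at -0.14 and Pcbp2 at 0.08. The 7 genes of ferritinophagy had a median of 0.13 and none passed the threshold on either side, beside the same shares of all measured genes. Beside Ncoa4, the autophagy receptor gene Tax1bp1 was at 0.14, Gabarapl2 at 0.15, Rb1cc1 at 0.14 and Atg9a at -0.12.

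Genes that use iron were mostly within the threshold. Of 34 measured genes of mitochondrial iron and iron-sulphur clusters, 2 or 5.88% were past the threshold on the higher side and none on the lower, beside 8.32% and 6.59% of all measured genes, with a median of 0.03. Ciao2b, of the cytosolic cluster assembly machinery, was at 0.40, Bola1, a mitochondrial cluster protein, at 0.39, the cytosolic assembly gene Ciao1 at 0.29 and Cisd3 at -0.22. Of 8 measured iron and iron-sulphur enzymes, 1 or 12.5% was higher and none lower, beside the same 8.32% and 6.59%. A count over 8 genes cannot be told from those shares. The higher gene was the aldehyde oxidase gene Aox1 at 0.47. Rrm2, the iron-bearing subunit of ribonucleotide reductase, was at 503.8 CPM with LY500307 and 573.7 CPM in the control, a log2 fold of -0.19. Abce1, a ribosome recycling factor, was at -0.15 and Sdhb, of succinate dehydrogenase, at 0.11.

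Genes that govern iron-driven lipid peroxidation overlapped with the glutathione pathway. Of 16 measured, 2 or 12.5% were past the threshold on the higher side and 1 or 6.25% on the lower, beside 8.32% and 6.59% of all measured genes, with a median of 0.10. The cystine importer genes Slc7a11 and Slc3a2 had log2 folds of 0.69 and 0.43, both past the threshold. Of the glutathione synthesis genes, Gclm was at 0.28, within the threshold, and Gclc at 0.05 with an interval that includes 0. Gpx4, the lipid peroxide reductase, was at 250.6 CPM with LY500307 and 209.7 CPM in the control. Its log2 fold of 0.26 was also within the threshold. Sat1, which acetylates polyamines, was at -0.33, on 569 reads with LY500307 and 808 in the control.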

How the data were processed

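Stranded libraries of RNA freed of ribosomal RNA were sequenced, per the labels' protocols. Per the submitters' processing notes, CASAVA 1.8, Bowtie2 and build mm9 were used. Which tool and annotation counted the reads, and how strand was used, is not stated in the sources used here, which leaves genes with an antisense neighbour uncertain. The authors' deposited table holds a signal for each gene, in which counts were multiplied by 1 factor per library. Once that factor and a small offset were removed, 100% of values in each library lay within 1% of a read from a whole number. CPM is the deposited value over the mean of both deposited totals. Symbols were found for 18177 identifiers, and entries sharing one were summed, leaving 18220 genes, 12243 of them with a mean of at least 1 CPM. Folds use a pseudocount of 1 CPM. Transcript lengths, copies (blastn 2.17.0, at least 95% identity over 100 bases and 50% of the shorter transcript) and hairpins came from GENCODE M21, whose build GRCm38 is not that of the deposited table. The named genes are the 10 and, for each list, up to 4 others with the largest absolute log2 fold among the measured. A few more were named after their values were seen (Hmox2, Blvra, Flvcr1, Alas1, Fbxl5, Bach1, Gclc, Gpx4). The 10 genes, the lists and the threshold of 0.32 in log2 fold were chosen with earlier results of these data known. From the lists of hairpin messages and iron enzymes, 1 gene is not reported here and is left out of their counts and medians. With 1 library per group no test was made. The read ratios and intervals were tested on simulated data with independent reads drawn around known levels. The intervals assume the same model, so that test checks the calculation and not PCR copies or variation between cultures. Calculations used Python 3.11.15 with scipy 1.17.1, figures matplotlib 3.10.9, and TMM factors edgeR 4.0.16.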

Additional observations from a re-analysis of the deposited data

How the results depend on the processing

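No paired analysis was possible because each group had 1 library, and for the same reason no replicate could be left out. Over 53 values of the 10 genes under other pseudocounts, other scalings and sums with copies, none changed sign and the largest shift in log2 fold was 0.046. The value of Ftl1 left its counting interval only with each library scaled by its own read total, at 0.20. The authors' factors stood in a ratio of 0.892, as did TMM. At 1.5-fold and at 2-fold, 0 of the 10 genes were higher and 0 lower. By counting interval, a rule chosen after seeing the data, 3 were higher and 2 lower. Of the 9081 genes above 10 CPM, 18.4% and 22.9% were. Of the 120 further iron and heme genes, 7 were higher and 1 lower with a pseudocount of 5 CPM, 1 and 0 at 1.5-fold, and 0 and 0 at 2-fold. By counting interval 31 were higher and 16 lower. These 120 genes had a minimum of 1 CPM, while the shares of 18.4% and 22.9% hold for genes above 10 CPM. The 31 and 16 thus have no matching background and are not read further. Over the 12243 measured genes, 432 were higher and 326 lower with a pseudocount of 5 CPM, 275 and 170 at 1.5-fold, and 31 and 15 at 2-fold. With no expression minimum, 1619 of 18220 genes were higher and 1342 lower. With a minimum of 5 CPM, 584 of 10148 were higher and 469 lower. With a minimum of 10 CPM, added after the data were seen, 382 of 9081 were higher and 351 lower. Stricter thresholds and minimums leave fewer genes by construction. Depth limits Slc40a1 most, with 231 reads with LY500307 and 225 in the control.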
